A study of Homo sapiens with 8 samples.

Results

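The genes described here are CFL2, its cofilin paralogs CFL1 and DSTN, and proteins that act on cofilin or share its actin-binding work: the kinases LIMK1 and LIMK2, the phosphatases SSH1 and SSH2, and PFN1, TWF1 and WDR1. The members were every array probe whose accession belongs to 1 of these 10 genes. Of the 10 genes, 9 had a probe, with 18 probes between them, among 16557 named genes on the array. No probe of SSH2 was matched. CFL2 was picked because its ratio in these data was already known to be among the highest, so its level is given as a description, and the other 9 genes were picked by name for their relation to it.

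The cells were L1236, an established line from Hodgkin lymphoma, a B-cell tumour in which miR-155 is abundant. They carried either the empty retroviral vector pMSCV-PIG (EV cells) or the same vector with a miR-155 sponge (sponge cells), an RNA with repeated sites for miR-155 that draws the microRNA away from its cellular targets. Transduced cells were sorted on the GFP that the vector encodes, so each population is a pool of this cell line alone. From each population, total RNA (T) and RNA precipitated with an antibody against Argonaute 2 (Ago2-IP, IP) were labelled with Cy3 and with Cy5 and hybridised to 4 two-colour arrays, IP and T of the same cells together, in both dye orientations. Ago2 is the protein that holds microRNAs on their target transcripts, and the IP/T ratio compares a transcript's signal in IP with its signal in T. All channels were scaled to the same distribution of signals. The ratio is therefore relative to the other transcripts and is not the share of a transcript that was precipitated. No precipitate with a control antibody was on these arrays, so unspecific pull-down was not measured. Each of the 4 groups (EV T, EV IP, sponge T, sponge IP) is 1 RNA sample. There was therefore no test and no p-value, and ± is the SD over the 2 dye orientations (the 2 dyes, where T or IP alone is compared), which covers labelling and hybridisation but not the spread between cultures or precipitations.

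Cofilins bind actin filaments, sever them and release monomers from the old end. Phosphorylation of a serine near the N-terminus by LIM kinases switches cofilin off, and slingshot phosphatases switch it on again. WDR1 helps cofilin to take filaments apart, whereas profilin (PFN1) and twinfilin (TWF1) bind the released monomers. CFL1 is the cofilin of most tissues, DSTN (destrin, also called ADF) is its close relative, and CFL2 is best known from muscle. The sponge was built against the mature strand below, which is shown because its seed, bases 2 to 8 (in capitals), sets which transcripts miR-155 can pair with. RefSeq places it on assembly GRCh38.p14, plus strand, at chr21:25573983-25574006, inside the microRNA gene MIR155.
hsa-miR-155-5p: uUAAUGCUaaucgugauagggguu
Probe sequences, and pairing of this seed with the transcripts below, were not analysed here.

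The share of spots well above background was 54.1% for sponge T in Cy5 and between 61.0% and 65.7% in the other 7 channels, and no spot was saturated. All 7 Hodgkin markers looked for were detected in T of both populations at 1 probe or more, although no channel detected TRAF1 at A_24_P89891. So were 4 of 6 B-cell genes. PAX5 was detected with both dyes in EV T but with only 1 in sponge T, and no channel detected MS4A1, which encodes CD20. Of genes of other blood cells, CD3E of 3 T-cell genes and CD14 and CSF1R of 3 monocyte genes were detected. CD3E was detected in EV T at A_24_P86968 but not at A_23_P416747. The 1 fibroblast gene with a probe was not detected. Of the muscle genes, MYOG was detected in T and ACTA1, CKM and DES were not. Of the 18 probes of the cofilin genes, 16 were well above background in all 8 channels and 17 were kept, which means detected in at least 4 channels with Cy3 and Cy5 within 2-fold of each other in every RNA sample. The probe left out was A_24_P109524 for SSH1, detected in 6 of 8 channels, whose dyes lay 1.01 apart on the log2 scale in EV T.

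The 3 cofilins stood far apart in the Ago2-IP fraction. CFL2 RNA was 43.2-fold higher in IP than in T of EV cells, DSTN RNA 1.96-fold higher, and CFL1 RNA was lower in IP than in T, at a ratio of 0.490. In sponge cells the ratios of the same probes were 28.7, 2.05 and 0.589. The order CFL2, DSTN, CFL1 held in both populations and in both dye orientations.

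The CFL2 probe A_23_P65401 had log2 signals of 8.20 (Cy3) and 8.18 (Cy5) in EV T, 13.53 and 13.73 in EV IP, 8.56 and 8.72 in sponge T, and 13.32 and 13.64 in sponge IP. All 4 IP values lay above all 4 T values, by more than 4 log2 units. EV cells thus had a log2 IP/T of 5.43 ± 0.13 (5.53 when IP carried Cy5, 5.34 when it carried Cy3) and sponge cells one of 4.84 ± 0.34 (5.08 and 4.60). Of the 22477 kept probes, 2 had a higher ratio in EV and 7 in sponge cells.

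The other CFL2 probe, A_24_P373152, was dimmer in every channel. Its log2 signals were 6.54 and 6.62 in EV T, 11.48 and 11.61 in EV IP, 6.43 and 6.17 in sponge T, and 11.07 and 11.25 in sponge IP, and every one but sponge T in Cy5 was well above background. In EV cells its log2 IP/T was 4.96 ± 0.15, 31.2-fold, and in sponge cells 4.86 ± 0.06, 29.1-fold, with 10 and 6 kept probes higher. Both probes lay at the top end of the array, which is a description only, since CFL2 was picked for its ratio in these data. They differed by 0.47 ± 0.01 in EV cells, beyond the SD, and by -0.02 ± 0.40 in sponge cells, within it. The CFL2 ratio was lower under an alternative normalisation. With normexp correction, loess and Aquantile scaling, the log2 IP/T of A_23_P65401 was 4.02 in EV and 3.56 in sponge cells and that of A_24_P373152 was 2.43 and 1.71, all still above the 2-fold line.

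**Figure D1:**
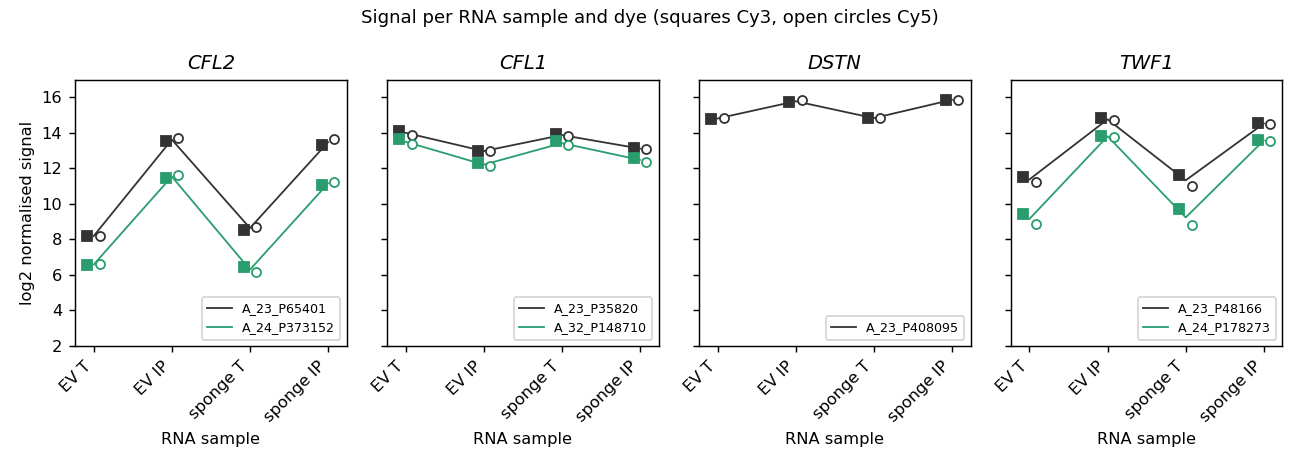
The vertical axis is the log2 quantile-normalised signal and the horizontal axis the 4 RNA samples, with a line through the mean of Cy3 (squares) and Cy5 (open circles) for each probe of CFL2, CFL1, DSTN and TWF1. CFL2 and TWF1 rise steeply from T to IP in both populations, DSTN rises by about 1 log2 unit, and CFL1 falls.

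CFL1 was detected in every channel. Its probe A_23_P35820 had log2 signals of 14.12 and 13.89 in EV T, 13.00 and 12.96 in EV IP, 13.96 and 13.81 in sponge T, and 13.15 and 13.09 in sponge IP. T lay above IP in each population with each dye, opposite to CFL2. In EV cells its log2 IP/T was -1.03 ± 0.19, and in sponge cells -0.76 ± 0.15. The other CFL1 probe, A_32_P148710, gave -1.29 ± 0.33 and -0.94 ± 0.29, ratios of 0.409 and 0.520. The probes differed from each other by 0.26 ± 0.14 in EV and 0.18 ± 0.15 in sponge cells. CFL1 has processed pseudogenes that closely resemble it, and how far their RNA adds to these probes was not tested.

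DSTN had a single probe, A_23_P408095, detected in every channel. Its log2 signals were 14.81 and 14.83 in EV T, 15.72 and 15.86 in EV IP, 14.83 and 14.84 in sponge T, and 15.87 with either dye in sponge IP. In EV cells its log2 IP/T was 0.97 ± 0.11 and in sponge cells 1.03 ± 0.008, just under and just over a 2-fold ratio, so that which side of the line it fell on was within the error in EV cells.

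Differences in log2 IP/T between the paralogs were large against the dye error. CFL2 (A_23_P65401) lay above CFL1 (A_23_P35820) by 6.46 ± 0.32 in EV cells, 88.3-fold, and by 5.61 ± 0.48 in sponge cells, 48.7-fold. It lay above DSTN by 4.46 ± 0.02 in EV cells, 22.0-fold, and by 3.81 ± 0.33 in sponge cells, 14.0-fold. With the dimmer CFL2 probe the distances were 5.99 ± 0.34 and 5.63 ± 0.08 from CFL1 and 3.99 ± 0.04 and 3.83 ± 0.07 from DSTN. CFL1 lay below DSTN by 2.00 ± 0.30 on the log2 scale in EV and 1.80 ± 0.15 in sponge cells. With normexp, loess and Aquantile, A_23_P65401 lay 4.86 above CFL1 and 3.05 above DSTN in EV cells, and 4.22 and 2.54 above them in sponge cells.

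**Figure D2:**
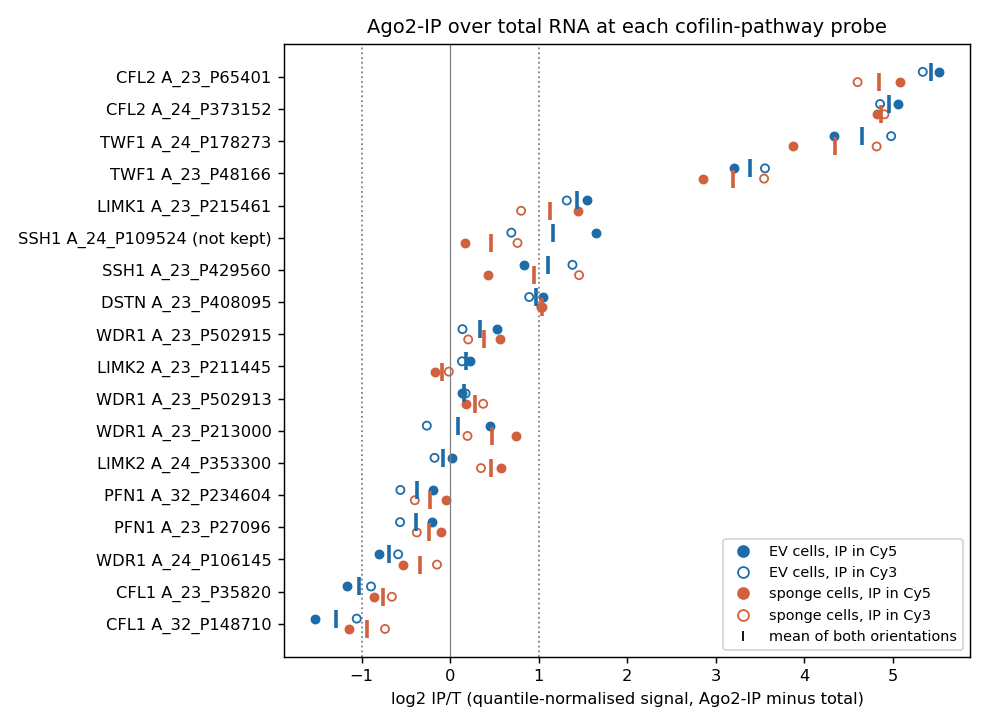
The horizontal axis is the log2 IP/T and each line of the vertical axis a probe, with filled points for IP in Cy5, open points for IP in Cy3, ticks for their mean, blue for EV and orange for sponge cells, and dotted lines at a 2-fold ratio either way. The CFL2 probes (4.84 to 5.43 on average) and TWF1 probes (3.20 to 4.66) stand apart on the right, and the CFL1 probes are the lowest in both populations.

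Of the monomer binders, TWF1 came next to CFL2. Its probe A_23_P48166 had log2 signals of 11.51 and 11.26 in EV T, 14.82 and 14.72 in EV IP, 11.63 and 11.04 in sponge T, and 14.58 and 14.48 in sponge IP. In EV cells its log2 IP/T was 3.38 ± 0.24, 10.4-fold, and in sponge cells 3.20 ± 0.49, 9.19-fold, with 242 and 264 kept probes higher. The probe A_24_P178273 had higher ratios, 4.66 ± 0.46 (25.3-fold) and 4.34 ± 0.67 (20.3-fold), with 30 and 41 kept probes higher. The TWF1 probes differed by 1.27 ± 0.21 on the log2 scale in EV and 1.14 ± 0.18 in sponge cells, beyond the SD. The size of the TWF1 ratio is thus uncertain. Averaged over the orientations, both probes gave at least 9-fold. Under the alternative processing described below, the log2 IP/T of A_23_P48166 went as low as 2.99 in EV and 2.85 in sponge cells. CFL2 exceeded TWF1 by 2.05 ± 0.38 in EV and 1.64 ± 0.83 in sponge cells when A_23_P48166 stood for TWF1, but by 0.77 ± 0.59 and 0.50 ± 1.01 when A_24_P178273 did, the last of which is within its SD.

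PFN1, the most general actin monomer binder, was slightly lower in IP than in T. Its probes A_32_P234604 and A_23_P27096 gave log2 IP/T of -0.38 ± 0.26 and -0.39 ± 0.25 in EV and of -0.23 ± 0.25 and -0.24 ± 0.19 in sponge cells. The probes lay within 0.02 of each other, and in sponge cells A_32_P234604 did not differ from a ratio of 1 by more than its SD.

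WDR1, the cofilin cofactor, had 4 probes, and they did not give 1 direction. In EV cells the log2 IP/T was 0.33 ± 0.27 at A_23_P502915, 0.15 ± 0.03 at A_23_P502913, 0.092 ± 0.50 at A_23_P213000 and -0.70 ± 0.15 at A_24_P106145. In sponge cells the same probes gave 0.39 ± 0.26, 0.28 ± 0.14, 0.47 ± 0.39 and -0.34 ± 0.27. None reached 2-fold in either direction.

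Of the LIM kinases, LIMK1 was higher in IP and LIMK2 was near an even ratio. The only LIMK1 probe, A_23_P215461, had log2 signals of 9.28 and 9.39 in EV T, 10.71 and 10.82 in EV IP, 9.17 and 9.67 in sponge T, and 10.47 and 10.62 in sponge IP. In EV cells its log2 IP/T was 1.43 ± 0.16, 2.69-fold, and in sponge cells 1.12 ± 0.46, 2.18-fold. With normexp, loess and Aquantile it was 0.99 in EV and 0.49 in sponge cells, under the 2-fold line. LIMK2 was measured by A_23_P211445 at 0.18 ± 0.06 in EV and -0.092 ± 0.11 in sponge cells, and by the dimmer A_24_P353300 at -0.081 ± 0.14 and 0.46 ± 0.16. The LIMK2 probes moved in opposite directions between the populations.

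SSH1, the phosphatase that opposes LIMK, had at its kept probe A_23_P429560 a log2 IP/T of 1.105 ± 0.39 (2.15-fold) in EV and 0.94 ± 0.73 (1.92-fold) in sponge cells. In both populations it lay higher with IP in Cy3 (1.38 in EV and 1.46 in sponge cells) than with IP in Cy5 (0.83 and 0.43), so whether it reached 2-fold depended on the orientation. The probe that was left out gave 1.17 ± 0.67 and 0.47 ± 0.42.

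An IP/T of 2 or more was found at 17.5% of all kept probes in EV and at 17.5% in sponge cells. Of the 17 kept probes of the cofilin genes, 6 reached it in EV and 6 in sponge cells, and 4 genes of 9 reached it in EV cells when each stood at its brightest kept probe: CFL2, TWF1, LIMK1 and SSH1. In sponge cells 4 genes reached it too, with DSTN in place of SSH1. Both lay near the line, and their changes between the populations were within the SD (DSTN 0.064 ± 0.10, SSH1 -0.16 ± 0.34). With normexp and either scaling, 2 of the 9 genes reached it in EV cells, CFL2 and TWF1. An IP/T of 8 or more was found at 4 of 17 probes, those of CFL2 and TWF1, in both populations. Over all kept probes the share was 1.7% in EV and 1.57% in sponge cells. Not all 4 stayed above 8-fold under the alternative processing described below. The lowest log2 IP/T of CFL2 A_24_P373152 was 2.38 in EV and 1.71 in sponge cells, and that of TWF1 A_23_P48166 was 2.99 and 2.85. A T/IP of 2 or more was found at 2 of 17 probes in EV cells, both CFL1, and at 0 in sponge cells, beside 19% and 17.8% of all kept probes. CFL2 entered the set because of its ratio, so nothing is read from these shares about the set. The median log2 IP/T of the 17 probes was 0.18 in EV and 0.46 in sponge cells, beside -0.16 and -0.13 over all kept probes. Normexp, loess and Aquantile moved the median of all kept probes in EV cells to 0.0003.

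**Figure D3:**
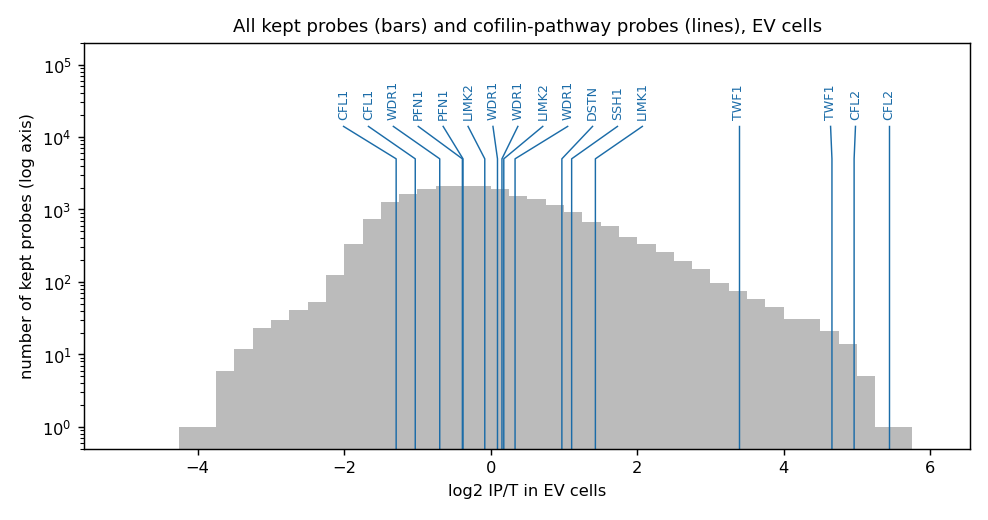
The horizontal axis is the log2 IP/T in EV cells and the vertical axis, on a log scale, the number of the 22477 kept probes in each bin (grey bars), with a blue line for each of the 17 kept probes of the cofilin genes. The lines of CFL2 and TWF1 lie in the right tail, and the other lines lie between -1.29 and 1.43, in the body of the distribution.

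With 1 probe per gene, the order in EV cells from high to low was CFL2, TWF1, LIMK1, SSH1, DSTN, WDR1, LIMK2, PFN1 and CFL1. LIMK1 and SSH1 differed by 0.32 ± 0.55 and SSH1 and DSTN by 0.13 ± 0.50, within their SDs, and neither pair differed beyond its SD in sponge cells. LIMK1 lay above DSTN by 0.46 ± 0.05 in EV cells, beyond the SD, and by 0.089 ± 0.45 in sponge cells, within it. WDR1 and LIMK2 did not differ beyond their SD in EV cells (0.15 ± 0.21), nor LIMK2 and PFN1 in sponge cells (0.13 ± 0.36). All other neighbours in this order did.

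Sponge cells were compared with EV cells to see whether any of these transcripts was lower in the Ago2-IP fraction or changed in amount when the sponge was expressed. How much of the miR-155 the sponge bound was not measured on these arrays, so sequestration is not taken as complete. No kept probe of the 17 differed by 2-fold in IP or in T. Over all kept probes, 0.0845% were 2-fold or more higher and 0.0667% lower in IP of sponge cells, and 0.151% higher and 0.258% lower in T. A lower T signal in a bulk sample does not tell fewer expressing cells from less RNA per cell.

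CFL2 was lower in IP of sponge cells at both probes. A_23_P65401 was lower by 0.20 with Cy3 and 0.088 with Cy5, a mean log2 difference of -0.15 ± 0.08, although the higher sponge value lay above the lower EV value when dyes were not matched. A_24_P373152 gave -0.38 ± 0.03 (-0.41 and -0.36), with no overlap between the populations. In IP, 22.1% of kept probes fell further than A_23_P65401, so its fall lay within the body of the array. At A_24_P373152 the share was 3.0965%. With normexp, loess and Aquantile the IP differences were -0.044 at A_23_P65401 and -0.48 at A_24_P373152. In T the CFL2 probes went opposite ways. A_23_P65401 was higher in sponge cells by 0.44 ± 0.13 (0.36 with Cy3 and 0.53 with Cy5), a larger rise than at 96.7% of kept probes. A_24_P373152 was lower, at -0.29 ± 0.24, and of its sponge T channels only Cy3 was well above background. With normexp, loess and Aquantile this value became 0.24, so that both probes were then higher in T of sponge cells.

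The change in log2 IP/T, sponge minus EV, was -0.59 ± 0.21 at A_23_P65401 (-0.44 when IP carried Cy5, -0.74 when it carried Cy3), and 1.37% of kept probes fell further. Of this change, 0.44 came from the higher T and 0.15 from the lower IP. At A_24_P373152 the change was -0.097 ± 0.21, within its SD. The mean over both probes was -0.34, and over all kept probes the change had a median of 0.017 and an SD of 0.25.

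CFL1 went the other way in IP. It was higher in IP of sponge cells by 0.14 ± 0.01 at A_23_P35820 and 0.27 ± 0.03 at A_32_P148710, and its T was lower by 0.13 ± 0.06 and 0.080 ± 0.07 on the log2 scale. The change in log2 IP/T was thus 0.27 ± 0.05 and 0.35 ± 0.04, beyond the dye SD at both probes. These changes were higher than at 86.6% and 92.1% of kept probes, so they lay within the body of the array. DSTN was nearly level, at 0.084 ± 0.10 in IP, 0.021 ± 0.004 in T and 0.064 ± 0.10 in log2 IP/T.

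Among the regulators, TWF1, LIMK1 and SSH1 had lower IP signals in sponge cells with both dyes. The differences in IP were -0.24 ± 0.006 and -0.23 ± 0.02 at the TWF1 probes A_23_P48166 and A_24_P178273, -0.22 ± 0.03 at LIMK1 and -0.34 ± 0.06 at the kept SSH1 probe. Each was several times its SD, yet each lay within the body of the array, where between 4.70% and 12.6% of kept probes fell further. In T none of them differed beyond its SD: TWF1 gave -0.050 ± 0.24 and 0.085 ± 0.23, LIMK1 0.085 ± 0.27 and SSH1 -0.18 ± 0.40. The change in log2 IP/T was within its SD for TWF1 at A_23_P48166 (-0.19 ± 0.25) and for SSH1 (-0.16 ± 0.34), and just beyond it for LIMK1 (-0.31 ± 0.30) and for TWF1 at A_24_P178273 (-0.31 ± 0.21).

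For LIMK2, A_23_P211445 was lower in IP of sponge cells by 0.34 ± 0.12 on the log2 scale, whereas A_24_P353300 gave 0.11 ± 0.32, higher with Cy3 and lower with Cy5. At A_24_P353300 the change in log2 IP/T, 0.54 ± 0.03, was higher than at 97.8% of kept probes, and most of it came from T, which was lower by 0.43 ± 0.34. PFN1 was higher in IP by 0.14 ± 0.03 at A_32_P234604 and 0.12 ± 0.08 at A_23_P27096, with T at -0.009 ± 0.02 and -0.027 ± 0.02. The WDR1 probes had changes in log2 IP/T of 0.38 ± 0.12 (A_23_P213000), 0.35 ± 0.12 (A_24_P106145), 0.12 ± 0.11 (A_23_P502913) and 0.053 ± 0.02 (A_23_P502915), all upward.

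**Figure D4:**
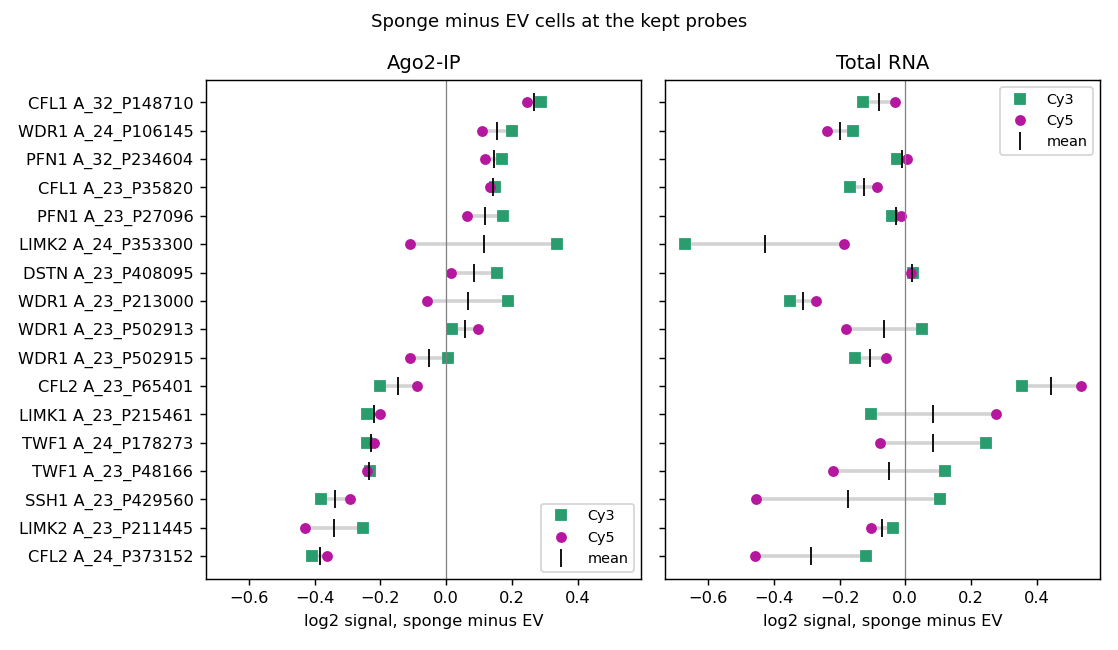
The horizontal axis of each panel is the log2 difference in signal, sponge minus EV, in Ago2-IP (left) and T (right) for the 17 kept probes on the vertical axis, with squares for Cy3, circles for Cy5 and ticks for their mean. The probes of CFL2, TWF1, LIMK1 and SSH1 lie left of zero in IP with both dyes, those of CFL1 and PFN1 lie right of it, and in T the CFL2 probes lie on opposite sides.

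Counted over the 17 kept probes, IP was lower in sponge cells with both dyes at 7 and higher with both dyes at 7, beside 35.7% and 37.8% of all kept probes. T was lower with both dyes at 9 and higher at 2, beside 33.4% and 28.5%. The log2 IP/T was lower in both orientations at 5 and higher at 9, beside 28.9% and 35.1%. The number of the 17 probes with a lower mean T was 13 here, 9 with normexp, loess and Aquantile and 8 with normexp and quantile scaling. These alternatives also start from the median spot intensity and add an offset, and which of these steps turned the values was not tested.

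The wider actin turnover pathway was described by 55 further genes, listed from general knowledge, of which 53 had a probe and 47 a kept probe. With 1 probe per gene, 9 of the 47 had an IP/T of 2 or more in EV and 9 in sponge cells, and 11 and 9 had a T/IP of 2 or more, close to the shares over all kept probes. With normexp, the number with a T/IP of 2 or more in EV cells fell to 3 (loess and Aquantile) or 4 (quantile). Their median log2 IP/T was -0.16 in EV and -0.12 in sponge cells. None differed by 2-fold between the populations in IP or in T.

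Of these genes only ARPC1A, a subunit of the Arp2/3 complex that starts branched filaments, exceeded 8-fold, at a log2 IP/T of 3.93 ± 0.12 in EV and 3.71 ± 0.07 in sponge cells. Other parts of the complex with 2-fold or more in both populations were ACTR2 (2.08 ± 0.35 and 2.09 ± 0.42 at A_23_P377376, but 0.70 ± 0.39 and 0.86 ± 0.58 at A_24_P276947), ARPC2 (1.54 ± 0.11 in EV cells, with a change of -0.038 ± 0.05 in sponge cells) and ARPC5 (1.28 ± 0.17 and 1.17 ± 0.11). Arp2/3 members were not uniform, since ARPC4 (A_24_P20383) had -1.02 ± 0.24 and -0.97 ± 0.13. ARPC4 was chosen after its values were seen.

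Among relatives of cofilin and other monomer binders, GMFB, which prunes Arp2/3 branches, had 1.98 ± 0.38 in EV and 1.80 ± 0.26 in sponge cells, and TMSB4X, the main thymosin that sequesters actin monomers, had 1.65 ± 0.04 and 1.69 ± 0.01. TWF2, the paralog of TWF1, had -1.19 ± 0.16 and -0.82 ± 0.29, against at least 3.20 at each TWF1 probe, so the twinfilins were parted in the same sense as CFL2 and CFL1. TWF2 was also chosen after its values were seen. PFN2 was above 2-fold at A_24_P396980 on the quantile-normalised scale (2.03 ± 1.00 and 2.41 ± 0.30), but neither population had a T signal well above background there. On the scale after normexp, loess and Aquantile, where the probe's own T signal served as the limit, IP was at least 1.12-fold above T in EV cells and at least 1.07-fold in sponge cells. These limits hold for that scale only. Over the alternatives the lowest log2 IP/T of this probe was 0.071 in EV and 0.092 in sponge cells. The brighter PFN2 probe A_23_P253301 gave 0.21 ± 0.34 and 0.73 ± 0.64.

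Beta-actin itself (ACTB) had 1.34 ± 0.26 in EV and 1.16 ± 0.33 in sponge cells at A_32_P137939, with 1.02 ± 0.07 and 1.27 ± 0.22 at A_23_P31323 and 1.01 ± 0.14 and 1.22 ± 0.19 at A_24_P226554, and stayed under 2-fold at A_23_P135769 (0.77 ± 0.01 and 0.88 ± 0.02). Upstream of LIMK, the GTPase CDC42 had 1.24 ± 0.18 and 1.07 ± 0.002 at A_23_P200560, although the other 3 CDC42 probes did not reach 2-fold and one of them, A_23_P300056, lay more than 2-fold lower in IP (-1.19 ± 0.05 and -1.21 ± 0.16). Of the ROCK and PAK kinases, which activate LIMK, ROCK2 (A_24_P328333, 2.00 ± 0.18 and 1.78 ± 0.41) and PAK2 (A_23_P327307, 1.35 ± 0.29 and 1.36 ± 0.56), passed 2-fold in both populations, while the brighter ROCK2 probe A_23_P209689 did not (0.96 ± 0.14 and 0.92 ± 0.04) and the brighter PAK2 probe A_32_P104075 did so in EV cells alone (1.103 ± 0.16 and 0.84 ± 0.41). The capping subunit CAPZA1 (A_24_P379379, 2.16 ± 0.51 and 2.02 ± 0.59) passed, though not at its brighter probe A_24_P310894 (0.998 ± 0.40 and 0.76 ± 0.30). YWHAZ, a 14-3-3 protein, which binds phosphorylated partners, passed at A_32_P198923 (1.86 ± 0.49 and 1.88 ± 0.72) and A_32_P97489 (1.72 ± 0.19 and 1.69 ± 0.40). It did not pass at its brightest probe, A_24_P209571 (0.62 ± 0.09 and 0.59 ± 0.11), or at A_32_P226149 (0.67 ± 0.01 and 0.60 ± 0.05). The lowest values in EV cells belonged to COTL1, a small cofilin-fold protein (-1.86 ± 0.07 and -1.98 ± 0.26), WAS, an activator of Arp2/3 in blood cells (-1.75 ± 0.32 and -1.87 ± 0.49), and DBNL, an adaptor with a cofilin-like domain (-1.53 ± 0.03 and -1.11 ± 0.15).

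**Figure D5:**
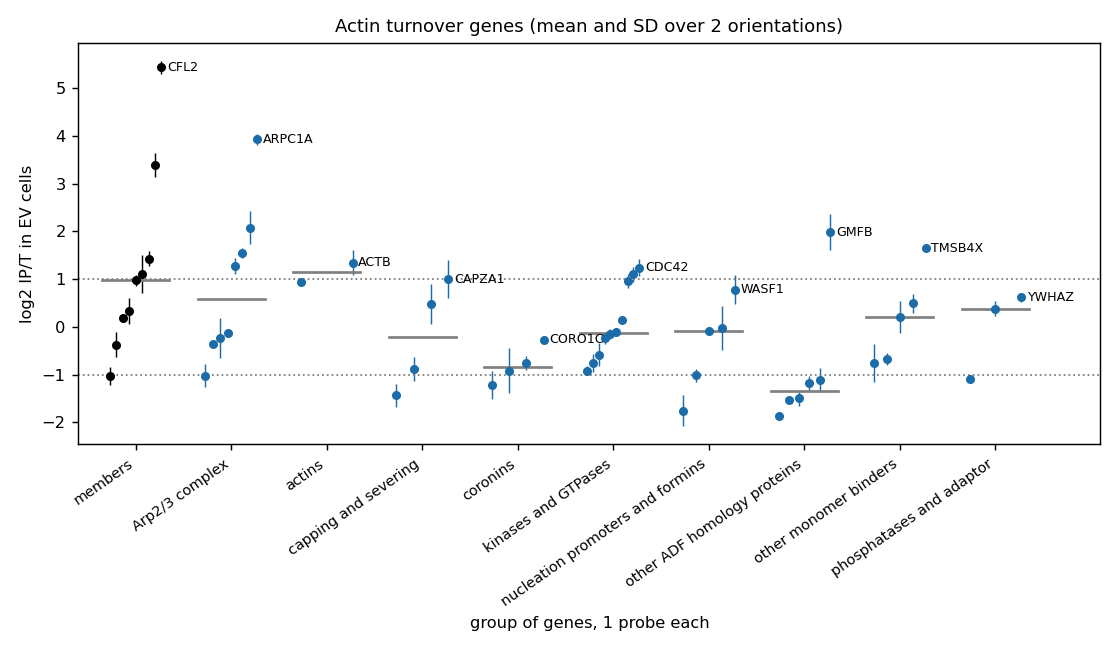
The vertical axis is the log2 IP/T in EV cells at 1 probe per gene, with bars for the SD over the 2 orientations, grey lines for the median of each group of genes on the horizontal axis and dotted lines at a 2-fold ratio either way. CFL2 at 5.43 and ARPC1A at 3.93 are the highest, and the other genes lie between -1.86 (COTL1) and 3.38 (TWF1).

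To find the genes whose signals ran most like CFL2 over the 8 channels, each probe was centred on its own mean and the root mean square difference from A_23_P65401 was taken over 15630 named kept probes. The closest were ZNF254 (0.136 log2 units), SGK1 (0.192), ZNF430 (0.192), BTG2 (0.209) and ZNF92 (0.220). ZNF254, ZNF430 and ZNF92 encode zinc finger proteins, SGK1 a serum-induced kinase and BTG2 an antiproliferative protein. Their log2 IP/T ranged from 5.00 (BTG2) to 5.20 (ZNF254) in EV cells and from 4.81 (ZNF92) to 4.98 (SGK1) in sponge cells. Of these, SGK1 was higher in IP of sponge cells with both dyes, by 0.15 ± 0.14, whereas the other 4 were lower with both. The dimmer CFL2 probe lay at 0.317, with 13 probes closer, and the TWF1 probes at 0.471 and 0.969, with 32 and 173 closer. DSTN lay at 2.08 and CFL1 (A_23_P35820) at 3.03, with 2839 and 12503 probes closer. The measure is set mostly by the step from T to IP.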

How the data were processed

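Total and Ago2-IP RNA of EV and sponge L1236 cells was measured on Agilent 44k arrays (design 014850, annotated on hg18). Per the labels, the authors extracted spots with Feature Extraction 10.5.1.1, whereas the file headers name 10.7.3.1. The deposited scanner files hold background-subtracted, dye-corrected processed intensity values, with identical files for the IP and the T sample of an array, which gives 4 arrays. The deposited series table holds the authors' quantile-normalised log2 values of 22282 probes, including 17 of the cofilin gene probes, and was used as an alternative. GEO gave 4 RNA samples, each labelled with both dyes, which were counted as 1 sample each. The number of arrays limits the precision. 

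Here, spots not flagged as outliers were averaged per probe, log2 values were quantile normalised over the 8 channels, and probes well above background in at least 4 channels (25837 of 41000) whose dyes agreed within 2-fold in all 4 samples (22477) were kept. Cy3 and Cy5 were averaged. Probes were named through RefSeq GRCh38.p14 accessions (15632 of the kept probes, 69.5%), with no gene coordinates since the builds differ. Alternatives with normexp (offset 50) used the median spot and background intensity of the files, as a mean-signal column was not used here, and kept the same probes. Tools were R 4.3.3 with limma 3.58.1, python 3.11.15, numpy 2.4.6, pandas 2.3.3 and matplotlib 3.10.9. The calculation of ratios was tested on simulated data. A probe below that level in both T dyes was given as a bound after normexp, loess and Aquantile, against the higher, per channel, of its own T signal and the lowest signal well above background.

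The genes, the pathway list and the comparisons were chosen with earlier results of these data known. Named were the 10 genes at every probe, pathway genes with a kept probe at an IP/T of 2 or more in both populations, the 3 lowest in EV cells, and the 5 probes most like CFL2. A gene stood at its brightest kept probe. Columns of samples outside the series numbered 0. Alternatives were 75th percentile scaling, normexp with either scaling, the authors' values, other detection and dye filters, 1 dye or 1 orientation, outlier spots kept, and the mean over a gene's probes.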

Additional observations from a re-analysis of the deposited data

Results flagged for a closer look

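LIMK2 at A_23_P211445 was singled out because its log2 IP/T was above 0 in EV cells in both orientations (0.22 and 0.13) and below 0 in sponge cells in both (-0.17 and -0.016), a change of -0.27 ± 0.17. With 1 RNA sample per population this difference was not tested, and the other LIMK2 probe, A_24_P353300, changed by 0.54 ± 0.03 in the opposite direction.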

How the results depend on the processing

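With normexp, loess and Aquantile, the log2 IP/T of CFL2 (A_23_P65401) became 4.02 in EV and 3.56 in sponge cells, with an IP difference of -0.044, distances of 4.86 and 4.22 from CFL1 and of 3.05 and 2.54 from DSTN, and 2 of the 9 genes had an IP/T of 2 or more in EV cells. With normexp and quantile scaling the values were 4.05 and 3.70, a change in log2 IP/T of -0.35, a T difference of 0.22, distances of 5.07 and 4.50 from CFL1 and of 3.13 and 2.67 from DSTN, and 2 genes. The offset of 50 raises dim signals by construction and so lowers ratios against a dim T. Were the dye filter applied again after normexp, loess and Aquantile, both probes of CFL2 and of TWF1 would be lost. The mean over both CFL2 probes gave 5.20 in EV cells, a change of -0.34, a T difference of 0.079, an IP difference of -0.26 and 4.23 above DSTN. CFL2 lay above DSTN in EV cells by 4.41 with Cy3 alone and 4.51 with Cy5 alone. A dye filter at 1.5-fold left 2 genes at an IP/T of 2 or more in EV cells, CFL2 and LIMK1. It removed both TWF1 probes and the SSH1 probe A_23_P429560 without changing a ratio. Their dyes lay 0.59 (A_23_P48166), 0.90 (A_24_P178273) and 0.84 (SSH1) apart on the log2 scale in sponge T. With Cy5 alone, 5 genes reached 2-fold in EV cells. In sponge cells the number went from 4 to 3 with either normexp setting and with the 1.5-fold filter. Directions turned for the T difference of CFL1 A_32_P148710 (0.035 with loess and Aquantile, 0.0010 with quantile), CFL2 A_24_P373152 (0.24 and 0.024), LIMK2 A_23_P211445 (0.044 and 0.029) and PFN1 A_23_P27096 (0.0032 with quantile), for the IP difference of WDR1 A_23_P502913 (-0.0024 with quantile) and for its IP/T in EV cells with Cy5 alone (-0.0013), and the cause was not tested. Of the values with a dye error, 104 main values moved by less than it under the alternatives and 22 by more, with no change of sign. Of single-probe values, 1154 moved by less and 114 by more without a change of sign. Besides the 9 turned values above, 3 whose main value was within its dye error changed sign by more than that error (PFN1 A_32_P234604 in T with either normexp setting and LIMK2 A_24_P353300 in EV IP/T with Cy5 alone), and 22 changed sign by less. The sponge T channel in Cy5, with 54.1% of spots well above background, limits what can be said of dim probes in T. IP and T of the same cells shared an array, but no analysis over replicate cultures was possible because each group holds 1 RNA sample.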
